A study of Mus musculus with 18 samples.

Results

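The genes described here encode enzymes and regulators of glycolysis and of glycogen breakdown and synthesis in mouse tibialis anterior muscle. They were named by symbol as a list of 31 genes. A probe annotated to that gene alone was found for 27 of them, and 26 had a probe above background on at least 3 arrays, out of 11233 genes kept in all. Hk2, Gpi1, Eno1 and Pfkfb1 were not analysed here, and the probe of Ppp1r3a, a subunit that brings protein phosphatase 1 to glycogen, was above background on 0 arrays. Of the 26 genes measured, 15 belong to glycolysis and 11 to glycogen metabolism.

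RNA from whole muscles of mice aged 2 months was measured on Illumina bead arrays. The A/J-MyD88 deficient mice (A/J-MyD88) lack both MyD88, the adaptor that carries signals from most Toll-like receptors, and dysferlin, a membrane repair protein of the muscle fibre. The A/J mice lack dysferlin only, and the A/JOlaHsd mice, labelled wild type, have both proteins. In each strain one tibialis anterior received 3 injections of single-stranded RNA (ssRNA, a Toll-like receptor ligand) within 10 days, with 3 days between them, and the opposite leg received saline on the same plan. Each of the 6 groups had 3 arrays, but A/JOlaHsd ssRNA array 2 carried no signal (3.71% of probes above background) and was left out of every value below unless stated, so that A/JOlaHsd ssRNA rests on 2 arrays. The labels do not say that arrays of a group came from separate animals, so the p-values measure the spread between these samples, which may be technical. The A/JOlaHsd mice are a substrain, and any other difference between it and A/J lies within the strain comparisons.

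Fast muscle fibres store glucose as glycogen. Glycogen phosphorylase (Pygm in muscle) releases glucose units once phosphorylase kinase, built from Phka1, Phkb, Phkg1 and calmodulin, has activated it. Glycogenin (Gyg), glycogen synthase (Gys1) and the branching enzyme (Gbe1) build the particle, and the glycolytic enzymes, which are among the most abundant proteins of fast fibres, convert the sugar to pyruvate and lactate for rapid contraction. In people, loss of PYGM causes McArdle disease and loss of PFKM causes Tarui disease.

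The windows around the transcription starts of Pygm, Phka1 and Gyg are shown as examples of the glycogen genes that were lower in the ssRNA-injected A/J muscle. They are RefSeq windows on GRCm38.p6, each of 300 bases, 5′ to 3′ on the gene's strand, and capitals mark the E-box letters CANNTG, the motif of basic helix-loop-helix factors. The Pygm window lies at chr19:6384158-6384457 on the plus strand, the Phka1 window at chrX:102644197-102644496 on the minus strand and the Gyg window at chr3:20155067-20155366 on the minus strand.
Pygm: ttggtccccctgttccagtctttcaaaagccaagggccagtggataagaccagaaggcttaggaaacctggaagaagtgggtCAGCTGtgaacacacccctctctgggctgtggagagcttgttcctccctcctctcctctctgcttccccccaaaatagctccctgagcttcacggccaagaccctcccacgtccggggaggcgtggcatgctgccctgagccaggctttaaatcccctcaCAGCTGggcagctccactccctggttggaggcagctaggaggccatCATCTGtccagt
Phka1: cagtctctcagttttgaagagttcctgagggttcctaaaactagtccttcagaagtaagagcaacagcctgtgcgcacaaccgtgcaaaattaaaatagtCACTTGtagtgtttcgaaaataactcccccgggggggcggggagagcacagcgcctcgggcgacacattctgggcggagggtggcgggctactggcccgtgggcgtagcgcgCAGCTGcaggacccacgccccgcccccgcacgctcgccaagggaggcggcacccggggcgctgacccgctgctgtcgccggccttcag
Gyg: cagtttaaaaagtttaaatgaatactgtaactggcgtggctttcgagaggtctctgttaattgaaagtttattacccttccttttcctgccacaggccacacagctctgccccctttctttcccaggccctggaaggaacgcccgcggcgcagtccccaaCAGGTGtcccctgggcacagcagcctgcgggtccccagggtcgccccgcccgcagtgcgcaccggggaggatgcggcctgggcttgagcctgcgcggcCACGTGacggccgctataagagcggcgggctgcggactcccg
The Pygm window held 3 such matches and the Phka1 and Gyg windows 2 each. The window of Phkb, which was also lower in ssRNA-injected A/J muscle, is not shown and held 1. On either strand, 72.3% of all 32851 RefSeq windows of this length held CANNTG, as did 28 of the 35 windows of the 25 measured genes that were matched. The stricter E-box CACGTG, which also counts as CANNTG, was found in the Gyg window, in 6 of the 35 windows (17.1%) and in 7.15% of all windows. ACGTG, the core of the hypoxia response element and a part of CACGTG, was found in 19 of the 35 windows (54.3%) and in 19.6% of all windows. By gene it was found in 16 of the 25, since some genes have several windows, of which some overlap. No share matched for GC content was computed, so the difference is not read as enrichment. These matches describe letters and show no binding.

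The arrays of A/J and A/J-MyD88 muscle had a mean signal of 98.1 to 147 intensity units, with 37.2% to 42.6% of probes above background. Those of A/JOlaHsd muscle had 37.4 to 50.2 units and 28.9% to 33.2%. The strain and this lower signal cannot be told apart. Dysf, the gene of dysferlin, was the lower in A/J saline legs, with a log2 difference of -3.47 ± 0.14 from A/JOlaHsd saline legs (SE of the limma fit, 3 arrays each, adjusted p = 1.36e-10), as the labels have it. The position of the Myd88 probe relative to the deleted part was not known, so its value checks nothing. All 14 muscle fibre markers, among them Ckm, Acta1 and Myh4, were above background on every array of the A/J and A/J-MyD88 groups.

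Levels below are log2 intensities after background correction and quantile normalization over the 17 arrays. A change is called at an adjusted p (limma, Benjamini-Hochberg over all 11233 genes) under 0.05. Each difference is ssRNA minus saline, A/J-MyD88 minus A/J, or A/J minus A/JOlaHsd. In whole muscle, fewer fibres and less RNA per fibre cannot be told apart.

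In A/J muscle 5 of the 26 genes (19.2%) fell in the ssRNA-injected legs and 0 rose, against 22.4% of all genes called, 10.0% that fell and 12.4% that rose. Of the 11 glycogen genes 4 fell, namely Pygm, Phka1, Phkb and Gyg, and of the 15 glycolysis genes 1 fell, Gpd1, which sits on the branch to glycerol phosphate. The median difference was -0.26 over the 26 genes, -0.44 over the glycogen genes and -0.11 over the glycolysis genes, and -0.05 over all genes. The groups did not overlap in 7 of the 26 genes in the downward direction (26.9%), which lies near the 24.1% of all genes, and in 2 upward, against 20.6% of all genes. With median centring in place of quantile normalization the median of all genes moved to -0.25, all calls shifted to 1365 higher and 3928 lower, against 1397 higher and 1123 lower with quantile normalization, and 17 of the 26 genes were called lower and 0 higher.

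**Figure D1:**
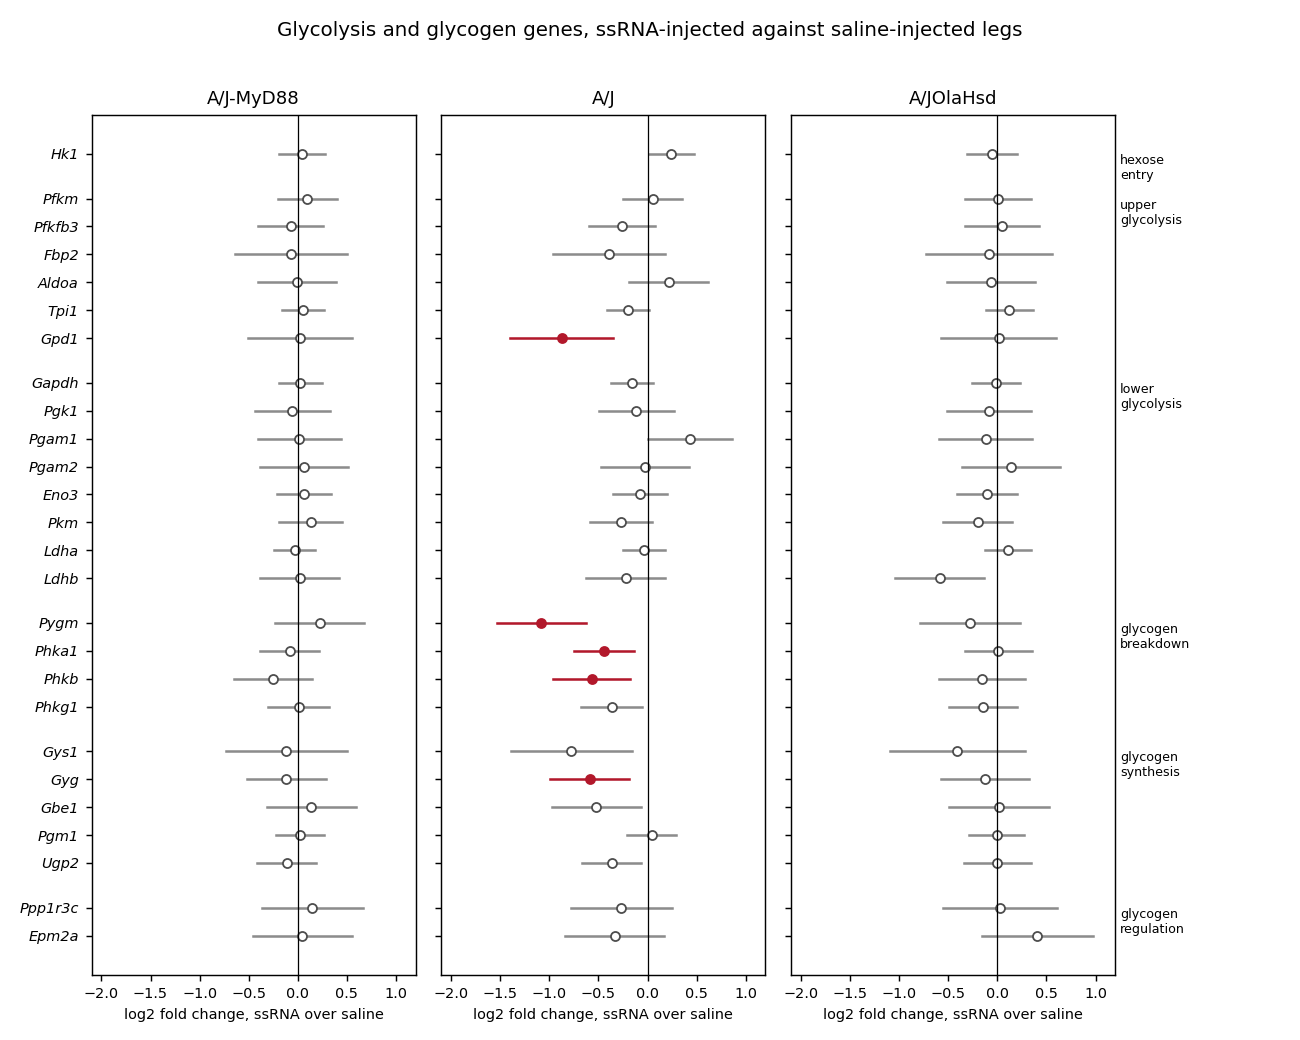
Log2 fold change of each of the 26 genes, ssRNA over saline legs, in A/J-MyD88, A/J and A/JOlaHsd muscle, with the 95% confidence interval of the limma fit. Filled red points passed the adjusted threshold: 5 genes in A/J and none in the other strains, where A/JOlaHsd ssRNA has 2 arrays.

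Pygm (chr19:6384408-6398464, GRCm38.p6) encodes muscle glycogen phosphorylase, the enzyme that cleaves glucose units from glycogen. Its log2 intensity was 10.52, 9.97 and 10.03 on the 3 A/J ssRNA arrays, against 11.47, 10.63 and 11.65 on the A/J saline arrays. Every ssRNA array lay below every saline array. Pygm fell by 1.08 on the log2 scale (SE 0.21, 3 arrays per group, limma adjusted p = 0.00186), which is 2.12-fold lower. The call was kept without any one of the 6 A/J arrays, with differences between -1.39 and -0.88.

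The subunits of phosphorylase kinase, which switches Pygm on, were next in the same chain. Phka1, the alpha regulatory subunit of muscle (chrX:102513975-102644301), was at 8.58, 8.87 and 9.01 in A/J ssRNA legs, against 9.49, 9.24 and 9.06 in A/J saline legs. It fell by 0.44 (SE 0.14, 3 arrays per group, limma adjusted p = 0.0363), and a second Phka1 probe fell by 0.67 (SE 0.19, limma adjusted p over probes = 0.0222). With same-numbered legs taken as pairs, in a replicate block, the Phka1 difference was the same, but its limma adjusted p was 0.0698. The labels do not tie these numbers to mice. Phkb, the beta subunit (chr8:85840853-86064251), was at 9.98, 9.56 and 9.75 in A/J ssRNA legs, against 10.59, 10.18 and 10.23 in A/J saline legs. It fell by 0.57 (SE 0.19, 3 arrays per group, limma adjusted p = 0.0374), and its second, dim probe differed by -0.24 without passing the test. Phkg1, the catalytic subunit, differed by -0.36 and did not pass (SE 0.15, 3 arrays per group, limma adjusted p = 0.0873), with ssRNA values of 9.92, 9.83 and 10.00 and saline values of 10.00, 10.34 and 10.50. No array of a leg crossed the other group for Phka1 or Phkb, while A/J ssRNA array 3 and A/J saline array 1 met for Phkg1.

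On the synthesis side, Gyg (chr3:20122083-20155117), which encodes glycogenin, the protein primer of new glycogen, was at 9.14, 8.64 and 9.06 in A/J ssRNA legs, against 9.68, 9.13 and 9.79 in A/J saline legs. The lowest saline array, array 2, lay just below the highest ssRNA array. Gyg fell by 0.59 (SE 0.19, 3 arrays per group, limma adjusted p = 0.0342), and its second probe differed by -0.82 without passing (limma adjusted p over probes = 0.0695). Gys1, muscle glycogen synthase (chr7:45434839-45456617), was at 5.57, 5.03 and 5.45 in A/J ssRNA legs, against 6.48, 5.44 and 6.46 in A/J saline legs. Its difference of -0.78 did not pass without the block (SE 0.29, 3 arrays per group, limma adjusted p = 0.0658) and passed with it (limma adjusted p = 0.0125). Gbe1, the branching enzyme, differed by -0.52 with limma adjusted p = 0.0947 without the block and 0.0223 with it, from 4.95, 5.83 and 5.30 in A/J ssRNA legs and 5.80, 6.31 and 5.53 in A/J saline legs. Within each of the 3 same-numbered A/J pairs, Gyg, Gys1 and Gbe1 were lower in the ssRNA leg. The share of all genes lower in all 3 pairs was not computed and the pairing is assumed, so this is not read as a result.

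The remaining synthesis genes did not pass the test. Ugp2, which makes UDP-glucose, had ssRNA values of 10.19 to 10.30 and saline values of 10.57 to 10.65 in A/J muscle, groups that did not overlap, with a difference of -0.37 (limma adjusted p = 0.0788). Pgm1, phosphoglucomutase, differed by 0.04. The glycogen regulators Ppp1r3c, which targets protein phosphatase 1 to glycogen, and Epm2a, the glycogen phosphatase laforin, differed by -0.27 and -0.33 and did not pass.

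In glycolysis, Gpd1 (chr15:99717587-99725014), cytosolic glycerol-3-phosphate dehydrogenase, was at 8.15, 8.04 and 8.02 in A/J ssRNA legs, against 9.28, 8.36 and 9.20 in A/J saline legs. The ssRNA arrays lay close together and below all saline arrays, of which array 2 was the lowest. Gpd1 fell by 0.88 (SE 0.25, 3 arrays per group, limma adjusted p = 0.0180), or 1.83-fold. The other 14 glycolysis genes did not pass, with differences between -0.39 for Fbp2, muscle fructose bisphosphatase, and 0.43 for Pgam1. Differences were 0.05 for Pfkm, the muscle phosphofructokinase, 0.22 for Aldoa, -0.20 for Tpi1, -0.16 for Gapdh, -0.11 for Pgk1, -0.27 for Pkm and -0.26 for Pfkfb3. The A/J legs did not overlap for Aldoa, which was the brighter in ssRNA legs, and for Tpi1, which was the dimmer there.

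The muscle and the more widely expressed forms of phosphoglycerate mutase and lactate dehydrogenase were measured side by side, while Eno3 and Hk1 were measured without their counterparts Eno1 and Hk2, and none of these genes passed between the A/J legs. Eno3, the muscle enolase, was at 13.89, 13.53 and 13.65 in A/J ssRNA legs, against 13.76, 13.65 and 13.89 in A/J saline legs. Its unnormalized signal was 13065 to 14947 units in ssRNA legs and 13882 to 14877 units in saline legs. On every array 13.89 was the highest normalized value, so Eno3 lay at or near the top of the scale. This limits the size of change that can be read for it and for the other brightest glycolysis genes. Pgam2, the muscle phosphoglycerate mutase, was at 12.19, 12.37 and 12.30, against 12.19, 12.55 and 12.19 in saline legs. Pgam1, the ubiquitous form, was at 6.61, 5.67 and 5.92, against 5.73, 5.41 and 5.76, and its difference of 0.43 did not pass (limma adjusted p = 0.139). Ldha, the lactate dehydrogenase form of fast muscle, was at 13.01, 12.92 and 13.00, against 13.04, 13.01 and 12.98, a difference of -0.04 with a 95% interval of -0.25 to 0.17. Ldhb, the form of oxidative tissue, was at 4.52, 4.76 and 4.96, against 4.82, 5.01 and 5.09. Hk1, a hexokinase common to many cells, was above background on 3 of 3 A/J ssRNA arrays (4.65, 4.56 and 4.70) and on 0 of 3 A/J saline arrays (4.45, 4.37 and 4.37), a difference that did not pass (limma adjusted p = 0.130).

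Apart from Pygm, each of the 5 calls in A/J was lost without some arrays. Gpd1, Phkb and Gyg were each lost without A/J saline array 1, A/J saline array 3, A/J ssRNA array 2 or A/J ssRNA array 3, with differences between -1.17 and -0.71 for Gpd1, -0.68 and -0.44 for Phkb, and -0.79 and -0.43 for Gyg over all 6 left-out arrays. Phka1 was lost without A/J saline array 1 or 2 or A/J ssRNA array 1 or 2, with differences between -0.54 and -0.32. Among the other settings, Gyg, Phkb and Phka1 did not pass with no background correction (limma adjusted p = 0.0676, 0.0715 and 0.0697), Gyg and Phkb did not with no filter on dim probes (0.0617 and 0.0658), and Gyg and Phka1 did not in a fit of only the arrays compared (0.0592 and 0.0657). With all 18 arrays in the fit none of the 5 passed. The count over the 26 genes was 2 without A/J saline array 1, A/J saline array 3 or A/J ssRNA array 3, and 3 without A/J ssRNA array 2.

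**Figure D2:**
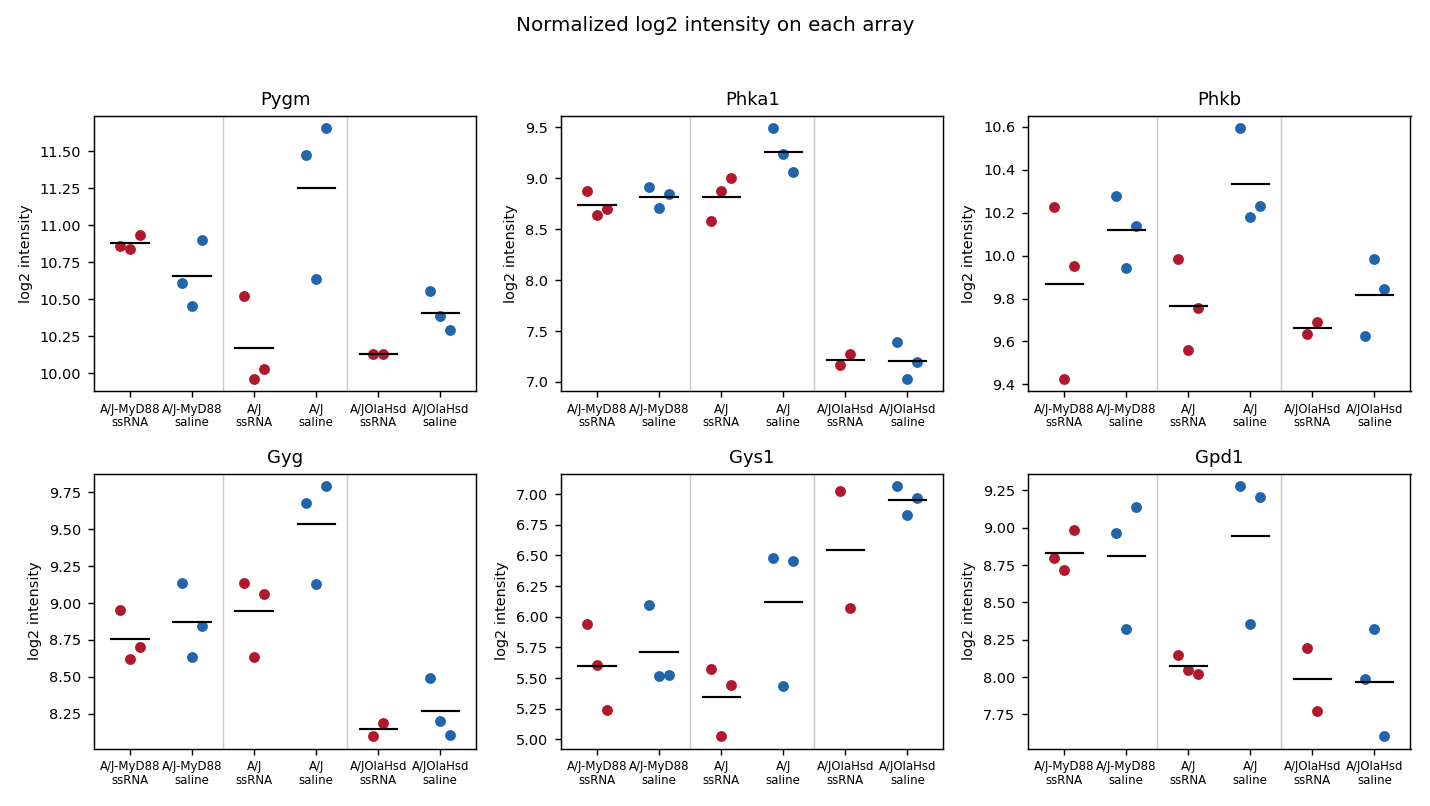
Normalized log2 intensity of 6 genes on each array (points; red ssRNA, blue saline) with the group mean as a line. The A/J ssRNA arrays lie below all A/J saline arrays for Pygm, Phka1, Phkb and Gpd1, and A/J saline array 2 is the lowest of its group for Pygm, Phkb, Gyg, Gys1 and Gpd1.

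In A/J and A/J-MyD88 muscle, legs that share a number tended to vary together, with deviations from group means correlated at 0.14 to 0.47. The weakest of these, A/J number 3 at 0.14, lay below A/J ssRNA array 1 against A/J saline array 3, at 0.17. Same-numbered A/JOlaHsd legs were at -0.12 and -0.10. These values cannot test the pairing there, since the deviations of the 2 A/JOlaHsd ssRNA arrays mirror each other. The labels do not tie the numbers to mice, so the pairing is assumed. Number 2 of A/J was the lowest of the 3 in both legs for 7 of the 26 genes, which were Gapdh, Pgam1, Eno3, Pygm, Phkb, Gys1 and Gyg, and the highest in both legs for 5, which were Fbp2, Pgam2, Gbe1, Ppp1r3c and Epm2a. In A/J-MyD88 muscle, number 2 was lowest in both legs for 8 genes, among them Pygm, Phka1, Phkb, Gyg and Gpd1. Pair by pair in A/J, the ssRNA leg minus the saline leg was -0.95, -0.67 and -1.63 for Pygm, -0.61, -0.62 and -0.47 for Phkb, -0.54, -0.50 and -0.73 for Gyg and -1.13, -0.31 and -1.18 for Gpd1. The pairs of Phkb and Gyg were thus closer to each other than the arrays of either leg were.

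In A/J-MyD88 muscle 0 of the 26 genes passed between the legs, as did 0 of all 11233 genes (limma; 130 genes, 1.16%, had an unadjusted p under 0.05, and 0 of these were among the 26). The 26 differences lay between -0.25 and 0.22, with a median of 0.02. Pygm was at 10.86, 10.84 and 10.94 in A/J-MyD88 ssRNA legs, against 10.61, 10.46 and 10.90 in A/J-MyD88 saline legs, a difference of 0.22 with a 95% interval of -0.23 to 0.68. In A/JOlaHsd muscle 0 of the 26 passed, against 1.85% of all genes, and the median difference was -0.04. Ldhb was above background on 0 of 2 A/JOlaHsd ssRNA arrays and on 1 of 3 A/JOlaHsd saline arrays, so no size of its difference is given. Epm2a was at 5.93 and 5.70 in A/JOlaHsd ssRNA legs, against 5.83, 4.70 and 5.69 in A/JOlaHsd saline legs, of which array 2 alone was low. Pygm was at 10.13 on both A/JOlaHsd ssRNA arrays, against 10.56, 10.39 and 10.29 in A/JOlaHsd saline legs, and its difference of -0.28 did not pass (2 against 3 arrays, limma adjusted p = 0.672).

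The difference between the A/J-MyD88 and A/J responses was itself tested and passed for 1 of the 26 genes, Pygm, which was higher, against 10.2% of all genes called and 3.34% called higher. With median centring the calls over all genes were 1933 higher and 919 lower, against 375 higher and 774 lower with quantile normalization. Its response in A/J-MyD88 exceeded that in A/J by 1.30 (SE 0.30, 3 arrays in each of 4 groups, limma adjusted p = 0.0128). That call was kept without any one of the 12 arrays. The responses of Gpd1 differed by 0.90 (limma adjusted p = 0.121), and those of Phka1, Phkb and Gyg by 0.36, 0.32 and 0.47, none of which passed. Between A/J and A/JOlaHsd 0 of the 26 responses passed, against 7.48% of all genes (711 higher and 1489 lower with median centring, against 552 and 288), and the A/J response of Pygm minus that of A/JOlaHsd was -0.80 (limma adjusted p = 0.136). The response of Gpd1 differed by -0.89 without passing (limma adjusted p = 0.150). The replicate block gave -1.06 (limma adjusted p = 0.0471), but it pairs the A/JOlaHsd legs by number. The labels do not give that pairing, and the 2 A/JOlaHsd ssRNA arrays cannot test it, so this call rests on an assumed pairing.

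Other genes of the pathway were read from lists of related enzymes and regulators. Pygl, the phosphorylase form of liver that is also found in other cells, rose in A/J muscle while Pygm fell. It was at 7.25, 6.88 and 7.55 in A/J ssRNA legs, against 5.53, 5.73 and 5.23 in A/J saline legs, a rise of 1.73 (SE 0.34, limma adjusted p = 0.00177). In A/J-MyD88 muscle it was at 6.68, 6.69 and 6.27 in ssRNA legs, against 6.61, 6.84 and 6.65 in saline legs, and the A/J-MyD88 response minus the A/J response was -1.88 (SE 0.48, limma adjusted p = 0.0211). Of the 21 other glycogen genes, Pygl and Calm2, a calmodulin gene, rose in A/J and Gsk3a, a kinase that inhibits glycogen synthase, and Gaa, the lysosomal glucosidase, fell. Each direction thus held 9.52% of the list, near the 12.4% of all genes that rose and the 10.0% that fell.

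Of 22 regulators of glycolysis and glycogen 10 fell in A/J ssRNA legs and 0 rose, which is 45.5% against the 10.0% of all genes that fell. The regulator list was chosen with earlier results of these data known, so this share may reflect that choice and is no independent result. The 4 with the largest difference were Camk2a, a calcium-dependent kinase, which fell by 0.90, Epas1, a hypoxia-inducible factor, by 0.81, Prkab2, a subunit of the energy sensor AMPK, by 0.77, and Mlxip, a glucose-sensing transcription factor, by 0.74. Camk2a had the smallest adjusted p of the list, with limma adjusted p = 0.000659. It was at 8.25, 8.83 and 8.51 in A/J ssRNA legs, against 9.34, 9.58 and 9.38 in A/J saline legs. Tkt, transketolase of the pentose phosphate pathway, rose by 0.80 (1 of 8 genes of that pathway), and Pfkfb2, which makes the glycolytic activator fructose 2,6-bisphosphate, fell by 0.49 (1 of 11 other glycolysis genes). These 2 counts lie near the 12.4% of all genes that rose and the 10.0% that fell. The response of A/J-MyD88 exceeded that of A/J for Camk2a by 0.85, Mlxip by 0.80, Pfkfb2 by 0.72 and Prkag1 by 0.60, all called, and was below it for Calm2 by 0.89.

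Some markers of other cells also differed between the A/J legs. All 19 measured macrophage markers rose in A/J ssRNA legs, with a median of 2.66. Their summed level was 22124 to 26984 units in A/J ssRNA legs, against 2606 to 5021 units in A/J saline legs, where Fcgr1 and Itgb2 were not above background on any array. It was 13758 to 16380 units in A/J-MyD88 ssRNA legs, against 13092 to 19642 units in A/J-MyD88 saline legs, and 12595 to 17531 units in A/JOlaHsd ssRNA legs, against 7584 to 19218 units in A/JOlaHsd saline legs. Of 6 fibroblast markers 5 rose in A/J. Of 4 regenerating fibre markers 2 rose, with summed levels of 1552 to 2250 units in A/J ssRNA legs and 914 to 1350 units in A/J saline legs. All 3 proliferation markers rose (summed 277 to 312 units in A/J ssRNA legs and 61.4 to 81.5 units in A/J saline legs), as did all 3 neutrophil markers (175 to 201 units in A/J ssRNA legs and 59.9 to 83.4 units in A/J saline legs). Summed endothelium markers were at 757 to 794 units in A/J ssRNA legs and 751 to 832 units in A/J saline legs. In the same order, erythroid markers were at 1270 to 2655 and 2254 to 3824 units. Slow fibre markers were at 1824 to 3347 and 1832 to 2495 units, and adipocyte markers at 45.5 to 114 and 38.6 to 46.1 units. Of the 14 muscle fibre markers 0 passed in A/J, with a median of -0.10 and summed levels of 123777 to 129283 units in ssRNA legs and 128411 to 132286 units in saline legs. Their mean log2 levels of 12.56 to 12.70 lay near the top of the normalized scale, 13.89, which limits the change that can be read. Among them Myh4 was at 10.90, 12.19 and 12.59 in A/J ssRNA legs, against 12.50, 12.41 and 12.31 in A/J saline legs. Myh1 was at 12.13, 12.24 and 12.21, against 11.89, 12.29 and 11.95. The part of the macrophage, fibroblast, regenerating fibre, proliferation and neutrophil markers in the changes of Pygm, Gpd1, Gyg, Phka1, Phkb and Pygl was not tested.

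**Figure D3:**
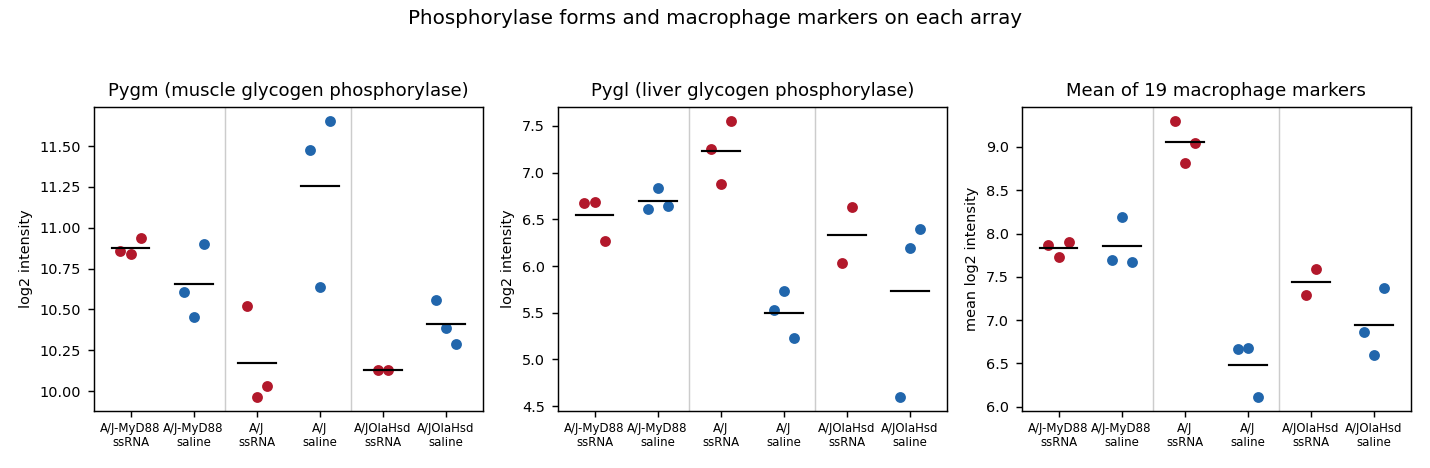
Log2 intensity of Pygm and of Pygl, and the mean log2 intensity of 19 macrophage markers, on each array (red ssRNA, blue saline, line at the group mean). In A/J muscle Pygm is lower and Pygl and the macrophage mean are higher in all ssRNA legs than in any saline leg, while the A/J-MyD88 legs overlap in all 3 panels.

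In the saline legs, A/J-MyD88 and A/J differed in 1 of the 26 genes, which was lower in A/J-MyD88, against 5.40% of all genes called and 0.988% called lower. With median centring the calls over all genes were 630 higher and 836 lower, against 496 higher and 111 lower with quantile normalization. Phkg1, the catalytic subunit of phosphorylase kinase (chr5:129863431-129879134), was at 9.60, 9.45 and 9.88 in A/J-MyD88 saline legs, against 10.00, 10.34 and 10.50 in A/J saline legs. It was lower by 0.64 in A/J-MyD88 (SE 0.15, 3 arrays per group, limma adjusted p = 0.0169). The call was lost without A/J saline array 2 or 3 or A/J-MyD88 saline array 1 or 2, with differences between -0.78 and -0.53. Pygm differed by -0.60 (limma adjusted p = 0.135), Phka1 by -0.44 (limma adjusted p = 0.0937) and Gyg by -0.66 (limma adjusted p = 0.0524) and did not pass. Gyg passed with the replicate block (limma adjusted p = 0.0470). Of the 19 macrophage markers 14 were higher in A/J-MyD88 saline legs, and their part in these values was not tested. This comparison and the A/J leg comparison share the A/J saline arrays. In the ssRNA legs 0 of the 26 genes passed between A/J-MyD88 and A/J, against 5.73% of all genes (850 higher and 671 lower with median centring, against 301 and 343), with Pygm at 0.71 (limma adjusted p = 0.0640) and Gpd1 at 0.76 (limma adjusted p = 0.0798).

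Between A/J and A/JOlaHsd saline legs 14 of the 26 genes were called, 12 higher and 2 lower in A/J, or 53.8%, against 47.3% of all genes called, 22.9% higher and 24.4% lower. With median centring the calls over all genes were 2480 higher and 5203 lower, with a median of all genes of -0.29, against 2576 higher and 2742 lower with quantile normalization, and the 26 genes had 12 higher and 5 lower. All 4 genes of glycogen breakdown were higher in A/J, with Pygm by 0.84, Phkb by 0.52, Phkg1 by 0.90 and Phka1 by 2.05. Phka1 was at 9.49, 9.24 and 9.06 in A/J saline legs, against 7.39, 7.03 and 7.20 in A/JOlaHsd saline legs (SE of the difference 0.14, limma adjusted p = 1.41e-07). Its 3 probes did not run the same way: the other probes differed by 1.32 and by -1.27, both past the threshold over probes.

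Among the synthesis genes, Gyg was higher in A/J by 1.27 (SE 0.19, limma adjusted p = 7.35e-05), at 9.68, 9.13 and 9.79 in A/J saline legs, against 8.49, 8.20 and 8.11 in A/JOlaHsd saline legs. Its second probe differed by 0.57 and did not pass (limma adjusted p over probes = 0.134). Gbe1 was above background on 3 of 3 A/J saline arrays (5.80, 6.31 and 5.53) and on 0 of 3 A/JOlaHsd saline arrays. Its A/J mean was at least 2.13-fold higher (limma adjusted p = 2.78e-05), against the dimmest probe above background on each A/JOlaHsd array. Gbe1 passed the filter on dim probes through A/J and A/J-MyD88 arrays alone, so this strain test is not independent of the filter. Over the 8 alternative settings the Gbe1 difference lay between 0.64 and 4.74 log2 units, so the bound holds for the main settings only. Gys1 was lower in A/J by 0.83 (SE 0.29, limma adjusted p = 0.0267), at 6.48, 5.44 and 6.46 in A/J saline legs, against 7.07, 6.83 and 6.97 in A/JOlaHsd saline legs, a call lost without A/J saline array 2 or without A/JOlaHsd saline array 1 or 3 (differences between -1.01 and -0.49). The Gys1 call held in 2 of 8 alternative settings and was lost with all 18 arrays, median centring, no background correction, no filter, the mean of its probes and array weights (limma adjusted p between 0.0596 and 0.429), and its second probe differed by -0.43 without passing (limma adjusted p over probes = 0.203). Pgm1 was lower in A/J by 0.33 (limma adjusted p = 0.0309) by its brightest probe, at 13.04, 13.20 and 12.86 in A/J saline legs, against 13.36, 13.24 and 13.48 in A/JOlaHsd saline legs, and higher by 0.96 by its second probe. The Pgm1 call was lost without A/J saline array 1 or 3 or A/JOlaHsd saline array 3, with differences between -0.41 and -0.24.

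Of the 15 glycolysis genes, 6 (40.0%) were higher and 0 lower in A/J saline legs, against 22.9% of all genes higher and 24.4% lower. Pfkm differed by 0.25 by its brightest probe, without passing, and by -0.28 and -1.43 by its other probes, of which the last passed (limma adjusted p over probes = 0.0177). Pgk1, phosphoglycerate kinase (chrX:106187100-106203699), was at 11.80, 11.63 and 11.57 in A/J saline legs, against 10.51, 10.13 and 9.55 in A/JOlaHsd saline legs, higher by 1.60 (limma adjusted p = 7.76e-06). Aldoa, the muscle aldolase (chr7:126795234-126800994), was at 13.34, 13.43 and 13.23, against 12.54, 11.81 and 11.55, higher by 1.37 (limma adjusted p = 3.99e-05). Both groups were apart for these genes, with the A/JOlaHsd arrays spread over 0.97 and 0.99 log2 units.

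Gpd1 was at 9.28, 8.36 and 9.20 in A/J saline legs, against 7.99, 8.32 and 7.61 in A/JOlaHsd saline legs, higher by 0.98 (limma adjusted p = 0.00425). Pgam2 was at 12.19, 12.55 and 12.19, against 12.20, 11.46 and 11.02, higher by 0.75 (limma adjusted p = 0.00831), and A/JOlaHsd saline array 1 reached the A/J values. Pkm, the pyruvate kinase of muscle, was at 13.26, 13.11 and 13.08, against 12.71, 12.53 and 12.81, higher by 0.46 (limma adjusted p = 0.0182), a call lost without A/J saline array 1 or A/JOlaHsd saline array 2 (differences between 0.39 and 0.53). Pfkfb3, an activator of phosphofructokinase through fructose 2,6-bisphosphate, was above background on 2 of 3 A/J and 0 of 3 A/JOlaHsd saline arrays (4.59, 4.48 and 4.92 in A/J), passed at limma adjusted p = 0.0373 and has no bound above 1. The Pfkfb3 call was lost without A/J saline array 1 or 3 or A/JOlaHsd saline array 2 or 3, and with median centring it was lower in A/J by 0.64. Pfkfb3, like Gbe1, passed the filter on dim probes through A/J and A/J-MyD88 arrays alone.

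Phkb was at 10.59, 10.18 and 10.23 in A/J saline legs, against 9.63, 9.98 and 9.84 in A/JOlaHsd saline legs (limma adjusted p = 0.0315), and its call was lost without A/J saline array 1 or A/JOlaHsd saline array 1 or 3, with differences between 0.39 and 0.60. Among the other settings with 17 arrays or fewer, the strain call was also lost for Phkb with no background correction, no filter and array weights, for Pfkfb3 and Pgm1 with only the arrays compared and with array weights, and for Pgam2 with only the arrays compared. With all 18 arrays in the fit, Phka1 and Gbe1 were the 2 genes still called. Phkg1 was at 9.32, 9.44 and 9.37 in A/JOlaHsd saline legs, below every A/J saline value (limma adjusted p = 0.000142). The triosephosphate isomerase gene Tpi1 differed by -0.10 by its brightest probe, and its other probes by 2.31 and by -0.76, both past the threshold over probes. Between the legs of A/J muscle, by contrast, the kept probes of Phka1, Phkb and Gyg ran the same way, and Pygm and Gpd1 had 1 kept probe each.

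**Figure D4:**
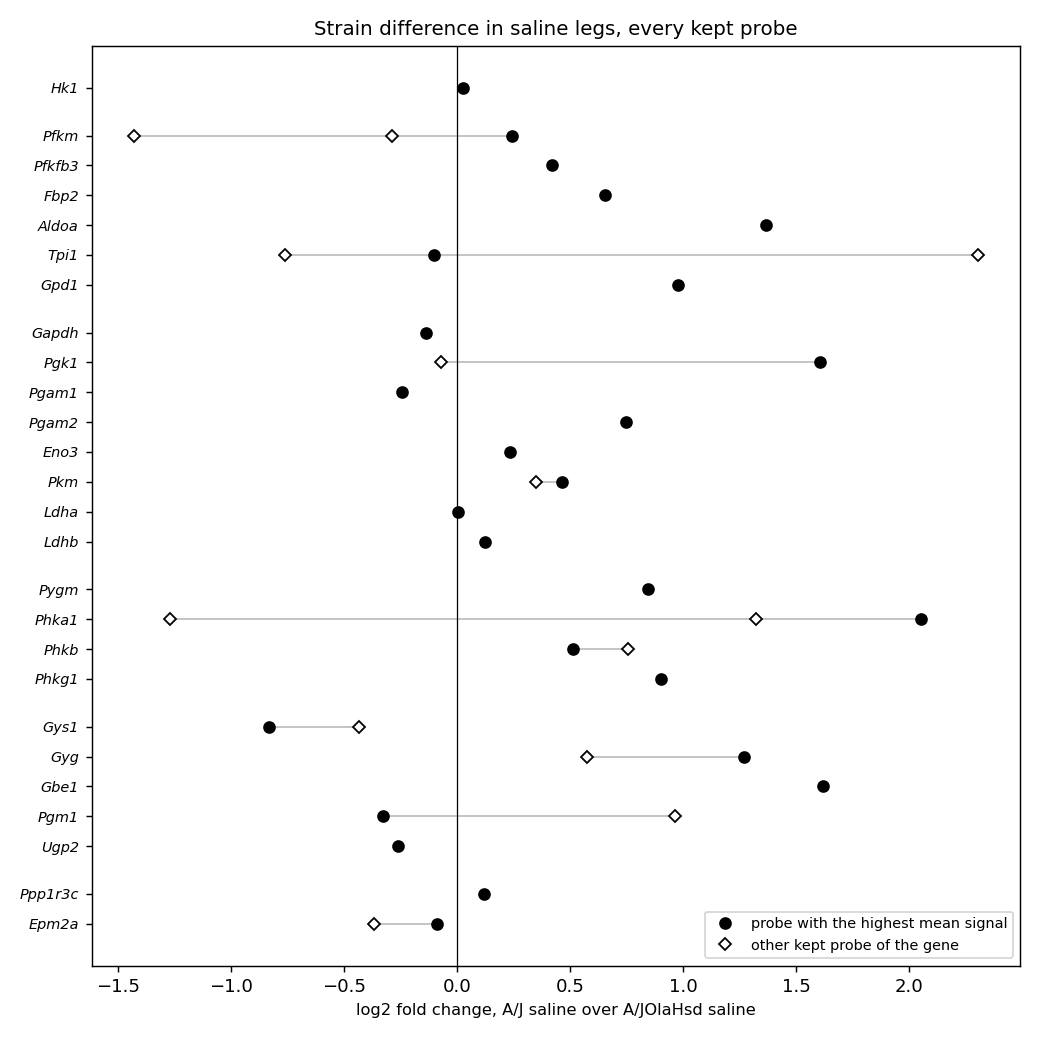
Log2 fold change in saline legs, A/J over A/JOlaHsd, for every kept probe of the 26 genes. Filled circles are the brightest probe of a gene and open diamonds its other probes; probes of Pfkm, Tpi1, Pgk1, Phka1 and Pgm1 lie on both sides of 0.

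Of the related genes in the saline legs, Prkab2, at 8.23, 8.02 and 8.10 in A/J against 6.75, 6.35 and 6.90 in A/JOlaHsd, was higher in A/J by 1.45 (limma adjusted p = 8.41e-06), and 8 of 22 regulators were higher and 3 lower. Of the 11 other glycolysis genes 5 were lower in A/J, among them Pfkp, the platelet form of phosphofructokinase (difference -1.03), and Pfkfb4, an activator of phosphofructokinase through fructose 2,6-bisphosphate (difference -0.82), and 1 was higher. Of 8 pentose phosphate genes 4 were higher and 1 lower, and of 21 other glycogen genes 5 were higher and 4 lower. Over all genes 22.9% were higher and 24.4% lower in A/J, shares that stand beside every count of this paragraph. The other glycogen genes lay near them. Among the muscle fibre markers 6 of 14 were higher in A/J and 1 lower, with summed levels of 128411 to 132286 units in A/J saline legs and 103936 to 116797 units in A/JOlaHsd saline legs. Of the 19 macrophage markers 9 were lower in A/J and 1 higher (summed 2606 to 5021 units in A/J saline legs and 7584 to 19218 units in A/JOlaHsd saline legs). Both erythroid markers were lower in A/J (2254 to 3824 units in A/J saline legs and 6150 to 13221 units in A/JOlaHsd saline legs), as were both adipocyte markers (38.6 to 46.1 units in A/J saline legs and 82.6 to 379 units in A/JOlaHsd saline legs). The part of these fibre, macrophage, erythroid and adipocyte markers and of the lower signal of the A/JOlaHsd arrays in the strain differences was not tested.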

How the data were processed

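Intensities of 45281 probes on 18 arrays, with a detection p-value for each, were deposited by the authors; their medians differ between arrays, so they hold no normalization between arrays. The p-value columns are named so per the file headers. GenomeStudio is named per the submitters' processing notes. Negative values show that a background had been subtracted. The authors' processed values, deposited as intensities on a linear scale and, by their values, brought to 1 common distribution strain by strain, were used as an alternative. limma 3.58.1 in R 4.3.3 was run: neqc (offset 16), probes with detection p under 0.05 on at least 3 arrays, and the brightest probe of each gene (probes of 1 symbol, 34885; of several, 18; unlisted, 10378). Group means over 17 arrays were fitted with lmFit and eBayes, tested two-sided over 8 comparisons and adjusted by Benjamini-Hochberg within each; the fit was tested on simulated data. The number of arrays limits the precision.

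All 26 genes are accounted for; those called in any comparison and the paired enzyme forms are given array by array, the others by range. Of each list of related genes, up to 4 called genes with the largest difference are named per comparison. Columns of log2 values were computed here from the deposited intensities. Members and lists were chosen with earlier results of these data known. The design names opposite legs of the mice, the labels do not tie replicate numbers to mice, and the numbers were taken to pair legs where every pair correlated: same-numbered A/J legs correlated at 0.40, 0.43 and 0.14 and A/J-MyD88 legs at 0.47, 0.18 and 0.17 (deviations from group means), against -0.12 and -0.10 in A/JOlaHsd. With 2 A/JOlaHsd ssRNA arrays, the A/JOlaHsd values cannot test a pairing. The alternatives were the arrays in the fit, normalization, background, filter, probe rule, weights, replicate block and left-out arrays.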

Additional observations from a re-analysis of the deposited data

Results flagged for a closer look

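The response of Pygm to ssRNA, as a difference between legs, differed between A/J-MyD88 and A/J by 1.30 (SE 0.30, limma adjusted p = 0.0128). It is given here because a contrast of the 2 responses passed the test: Pygm differed by 0.22 in A/J-MyD88 and fell by 1.08 in A/J. Every A/J ssRNA array lay below every A/J saline array for Pygm, so any pairing of the A/J legs would put the ssRNA leg lower.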

How the results depend on the processing

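The counts of called genes among the 26 depended on the settings. With all 18 arrays the count was 0 in A/J legs, against 5 in the 17-array fit; 2 between A/J and A/JOlaHsd saline legs, against 14; and 0 for A/J-MyD88 and A/J saline legs and for their responses, against 1 each; array 2 of A/JOlaHsd ssRNA has no signal. Median centring gave 17 in A/J legs, 5 and 3 between A/J-MyD88 and A/J saline and ssRNA legs (against 1 and 0), 4 when the A/J-MyD88 response was set against the A/J one (against 1) and 2 when the A/J response was set against the A/JOlaHsd one (against 0). In A/J legs, no background correction gave 2, no filter 3, array weights 10, each strain normalized alone 8 and the authors' processed values 8. No background correction gave 1 in A/JOlaHsd legs and 1 for the responses of A/J against A/JOlaHsd. Array weights gave 4 in each of the A/J-MyD88 against A/J saline and ssRNA comparisons and 5 for their responses. The mean of all kept probes gave 2 between A/J-MyD88 and A/J saline legs, and fitting only the arrays compared gave 2 between their ssRNA legs. With the replicate block the counts were 6 in A/J legs, 2 between A/J-MyD88 and A/J saline legs and 1 for the responses of A/J against A/JOlaHsd. It changed no count in the others. The pairing of the A/JOlaHsd legs by number is assumed and could not be tested. Leaving out 1 array gave 2 to 5 in A/J legs, 10 to 15 between A/J and A/JOlaHsd saline legs, 0 to 2 between A/J-MyD88 and A/J saline legs, 0 to 2 for the responses of A/J against A/JOlaHsd and 1 to 2 for those of A/J-MyD88 against A/J. Leaving out A/J saline array 2 gave the 2 in both response comparisons. Between A/J and A/JOlaHsd saline legs, Pfkfb3 was at -0.64 with median centring and Pgm1 at 0.32 with the mean of its probes. Beyond the missing signal of 1 array, the cause was not tested. The number of arrays and, for probes near background, the signal limit the size of change that can be called. For the brightest probes the top of the normalized scale does so too.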

Other observations

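Among genes of the pentose phosphate pathway, Rpe, which interconverts pentose phosphates, varied within A/J. It was at 5.03 on A/J ssRNA array 3 and at 6.90 or more on the other 2 arrays of that group, and at 7.47, 7.18 and 5.35 in A/J saline legs, so that number 3 was lowest in both legs. In A/J-MyD88 muscle it was at 4.93, 4.89 and 5.29 in ssRNA legs and at 4.95, 4.81 and 4.82 in saline legs. Between the saline legs the A/J-MyD88 level minus the A/J level was -1.81 (limma adjusted p = 0.0424). In A/JOlaHsd saline legs Rpe was not above background on any array, and the A/J saline mean was at least 3.68-fold higher (limma adjusted p = 0.00134). That bound is for the mean of arrays between 5.35 and 7.47 and does not hold for each of them.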
